A study of Mus musculus with 4 samples.

Results

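R5, the most mature of 4 sorted populations of red cell precursors from mouse fetal liver, was set against R3, the basophilic population. Both samples of the comparison come from a series of 4 samples, 1 library for each population, and of the 19564 gene symbols measured the 8296 with at least 1 RPKM in R3 or R5 were compared. RPKM is a read count divided by the length of the gene and by the reads of the library. The cells came from E14.5 embryonic livers stained for TER119, an antigen of the red cell lineage, and for CD71, the transferrin receptor. R3 held early and late basophilic erythroblasts. R5 held late orthochromatophilic erythroblasts and reticulocytes, cells that are already without a nucleus. R2, less mature than R3, and R4, mostly polychromatophilic and orthochromatophilic, are given beside them only as values. All cells were sorted fresh, without culture, and RNA enriched for polyadenylated transcripts was sequenced. The labels name no strain, genotype or treatment, and do not say how many embryos were pooled. With 1 library for each population no difference has a replicate check, so every ratio describes these libraries and no p-value is given.

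Erythroblasts replicate their DNA and divide through the basophilic and polychromatophilic stages. In the orthochromatophilic stage the nucleus condenses and is then expelled, transcription stops, and the transcripts left in the cell are those that are stable. Reticulocytes then lose their organelles, part of it through the proteasome and through autophagy, while hemoglobin synthesis goes on from long-lived globin transcripts. In bulk samples such as these, fewer cells of a type and less RNA in each cell cannot be told apart.

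Most genes had lower values in R5 than in R3 as deposited. The median log2 ratio of RPKM + 1 was -0.58 over the 8296 genes, with 7250 genes below 0 and 1036 above it. At least 2-fold more RPKM in R5 was seen for 66 genes (0.796%), and at least 2-fold less for 1302 (15.7%). Globin transcripts took 59.4% of the summed RPKM in R3 and 81.9% in R5, which lowers the values of all other genes. With globin genes removed and the rest brought to a common sum, the median was -0.21, and 180 (2.17%) of 8288 genes lay past 2-fold on the higher side and 293 (3.54%) on the lower. With each library scaled by the median ratio over 2745 genes at 5 RPKM or more in all 4 libraries, called median scaling from here on, the median was -0.01 and the counts turned to 289 (3.48%) higher and 98 (1.18%) lower. Higher genes thus made up 4.82% of those past 2-fold as deposited, 38.1% with globins removed and 74.7% with median scaling. The direction of a single gene is therefore read against the median of the same scaling. All 66 genes higher as deposited were also higher with median scaling, and all 98 genes lower with median scaling were also lower as deposited. Median scaling raised the ratio of every gene, so both had to hold. Ratios on the scale of RPKM + 1 understate the change of low genes.

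**Figure D1:**
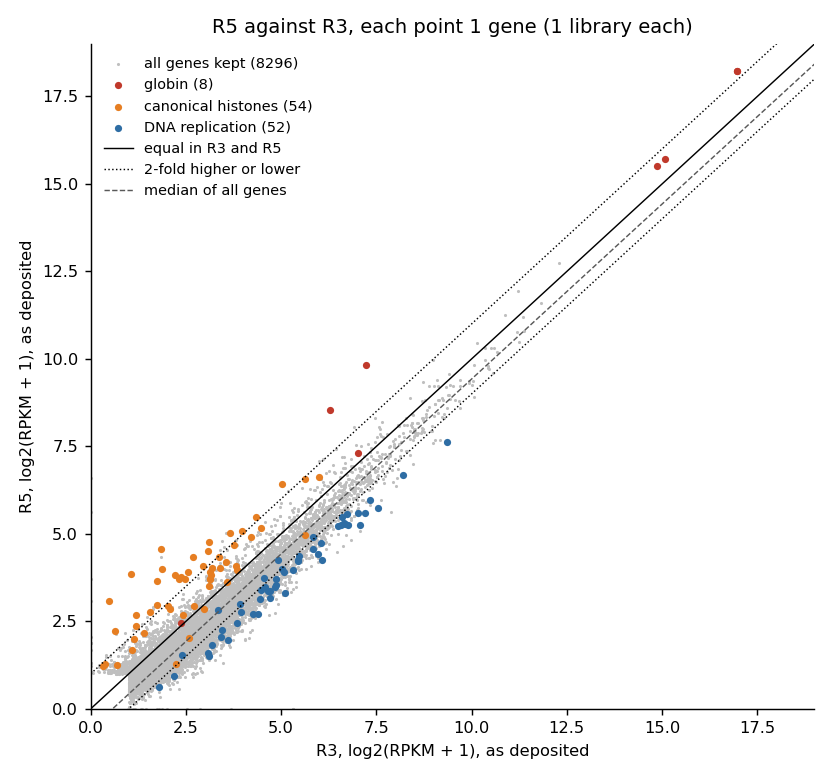
Each point is 1 of the 8296 genes, with log2(RPKM + 1) in R3 on the x axis and in R5 on the y axis, as deposited; the solid line marks equal values, the dotted lines 2-fold, and the dashed line the median of all genes at -0.58. The canonical histone genes lie mostly above the solid line and the DNA replication genes below the dashed line, and the globin genes with the highest values are at the upper right.

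The number of reads was worked out from the step size of the values and was at most 25625307 in R3 and 20724017 in R5; a gene of 1 kb at 10 RPKM then has 256 and 207 reads. Of the 8296 genes, 192 rested on fewer than 30 estimated reads in both libraries, among them 21 of the 66 genes higher as deposited. Such genes include housekeeping genes with few countable bases. Gapdh, the glycolytic enzyme, was listed at 0 in R3 and at 96.5 RPKM in R5, which stood for 0 and 2 reads over 1 base, and Rps27, a ribosomal protein gene, was at 39.0 and 0 RPKM, or 1 and 0 reads. Such a 0 says nothing about whether the transcript was there.

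A gene behind the sort was compared first. The CD71 gene Tfrc was at 52.1, 133, 74.4 and 32.8 RPKM from R2 to R5. It was 4.07-fold lower in R5 than in R3, with a log2 ratio of -1.99 as deposited, -1.53 with globins removed and -1.29 with median scaling, and it was among the 20 lowest ratios under the naming rule. All 13 genes of an erythroid identity list were kept, and 0 of them were listed at 0 in either library.

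Under the naming rule the highest ratios belonged to the embryonic globins. Hbb-y, the embryonic beta-like globin, was at 76.7, 148, 230 and 903 RPKM from R2 to R5, so R5 stood 6.10-fold above R3. Hba-x, the embryonic alpha-like globin, was at 40.9, 77.0, 120 and 370 RPKM, 4.80-fold higher in R5. In RPKM as deposited, most of both differences lay between R4 and R5, and the size of each step depends on the scaling. The adult genes were far more abundant and differed less. Hba-a1 and Hba-a2, the adult alpha globins, had identical values of 9072, 128567, 230890.2 and 306178 RPKM, and a log2 ratio of 1.25 in R5 against R3. Hbb-b1 and Hbb-b2, the adult beta globins, were at 29661 and 34559 RPKM in R3 and at 46936 and 54178 in R5, with log2 ratios of 0.66 and 0.65. Hbb-bh1, another embryonic beta-like globin, did not share the pattern of Hbb-y, at 128, 153 and 159 RPKM from R3 to R5. Hbq1, a theta globin, was at 4.16 and 4.44 RPKM. Of the 8 globin genes 4 were at least 2-fold higher as deposited and 7 with median scaling. As a share of Hbb-b1, Hbb-y was 4.43%, 0.499%, 0.485% and 1.92% from R2 to R5, so R5 lay between R2 and the 2 middle populations. Hba-x as a share of Hba-a1 followed the same order, with 0.451%, 0.0599%, 0.0522% and 0.121%. These ratios within a library do not depend on its scaling. The ratio of Hba-a1 to Hbb-b1 was 5.24, 4.33, 4.88 and 6.52 from R2 to R5. The globin genes are near-identical copies within each type, and no source used here says how reads were divided between them.

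The 150 bases before the start of the 2 embryonic globin genes are shown because these genes led the comparison. They are from RefSeq, build GRCm38.p6, and capitals mark matches on either strand to 5 motifs, here and in the sequences further on. The motifs are the box TATAAA, the box CCAAT, the site for GATA factors with AGATAA as well as the form TGATAA, the element CCACACCC, and the E2F site, either TTTCCCGC or its variant TTTGGCGC. A match is a description of letters and not a bound site.
Hbb-y, chr7:103853208-103853357, minus strand: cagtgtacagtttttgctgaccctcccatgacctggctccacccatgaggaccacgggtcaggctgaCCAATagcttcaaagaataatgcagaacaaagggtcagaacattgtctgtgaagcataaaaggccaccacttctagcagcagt
Hba-x, chr11:32276450-32276599, plus strand: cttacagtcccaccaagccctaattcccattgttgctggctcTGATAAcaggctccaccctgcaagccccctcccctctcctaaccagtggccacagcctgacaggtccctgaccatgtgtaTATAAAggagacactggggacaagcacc
The Hbb-y window held 1 CCAAT, from base 83 to base 79 before the start. The Hba-x window held 1 TATAAA, from base 28 to base 23, and 1 TGATAA, from base 108 to base 103. Over all 32851 promoters of the table, the same windows held TATAAA in 7.57%, CCAAT in 24.5%, a GATA site in 9.65%, CCACACCC in 2.18% and an E2F site in 0.868%.

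Canonical histone genes, which supply the nucleosomes of replicating DNA, formed the largest group with higher values in R5. Their transcripts usually end in a stem-loop in place of a poly(A) tail. Of 64 genes listed 56 were measured and 54 kept, and their median log2 ratio was 0.91 as deposited, against -0.58 for all genes. As deposited 23 of the 54 were at least 2-fold higher and 0 lower, beside 0.796% and 15.7% of all genes. With median scaling 44 were higher (3.48% of all genes were), and with globins removed 42 (2.17%), and again 0 were lower. Hist1h2bc was at 9.91, 31.5, 44.1 and 85.2 RPKM from R2 to R5. Hist1h1c, a linker histone, was at 25.5, 48.2, 59.1 and 94.4 RPKM. In both genes R5 was the highest of the 4 libraries and R4 lay between R3 and R5. Hist1h4i was the most abundant, at 35.3, 62.5, 29.3 and 97.8 RPKM, with R4 the lowest. Hist1h4d also had its lowest value in R4 and its highest in R5, at 23.9, 19.2, 10.9 and 43.6 RPKM. R4 lay below both R3 and R5 in 32 of the 54 genes and between them in 21, as deposited. The exceptions to the direction were Hist1h2af, at 48.4 RPKM in R3 and 30.4 in R5, Hist2h2be, at 3.73 and 1.43, Hist1h2ag, at 4.94 and 3.05, and Hist1h2bh, at 6.81 and 6.17. Of the 54 genes 5 passed the limit of 1 RPKM only through R5 and 0 only through R3; of the 49 others 21 were at least 2-fold higher as deposited and 40 with median scaling. The 4 exceptions are all the members with a ratio below 0, and all 4 belong to the H2A and H2B families.

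By family, the median log2 ratio as deposited was 1.17 for the 5 linker histones, 0.85 for 13 H2A genes, 0.58 for 15 H2B genes, 1.04 for 10 H3 genes and 1.34 for 11 H4 genes. Every one of the H1, H3 and H4 genes was above 0, against 11 of 13 H2A and 13 of 15 H2B genes. Histone genes of 1 type are near-identical copies and few of their bases could be counted, so the values of single genes rest on few reads. For 36 of the genes the reads themselves could be worked out, and their sum was 588, 631, 520 and 1008 from R2 to R5. Divided by the reads of each library, the ratio of R5 to R3 was 1.98 (95% exact counting interval 1.79 to 2.19), or 3.25 (2.94 to 3.60) with median scaling. The interval covers counting error only. The 22 of these genes with under 30 reads gave 2.12 (1.77 to 2.54) and the 14 others 1.91 (1.70 to 2.16). By family, the ratios were 1.60 (1.33 to 1.94) for H2A, 1.70 (1.37 to 2.11) for H2B, 2.33 (1.84 to 2.96) for H3 and 2.43 (2.01 to 2.94) for H4. The intervals of H2A and H4 did not overlap, and that of H3 overlapped each of the others. Hist1h2af alone gave 67 of the 199 H2A reads in R3 and 34 of the 258 in R5, so the H2A ratio leans on this gene. The intervals leave out the spread between genes, and a difference between families was not tested. Without the genes under 30 reads, 31 histone genes remained, with a median log2 ratio of 0.95, and 14 of them were at least 2-fold higher. Replacement histones, most of whose transcripts carry a poly(A) tail, had a median of -0.14 over 9 genes as deposited. Of these 0 were higher and 1 lower, beside 0.796% and 15.7% of all genes, and 7 lay above the all-gene median. With median scaling their median was 0.57, with 1 higher and 0 lower, so they too stood above most genes, though less than canonical histones. H3f3a was at 639 RPKM in R3 and 588 in R5, H2afx at 274 and 272, and H2afz at 127 and 50.6. How evenly the enrichment of polyadenylated RNA acted on histone transcripts in R3 and R5 was not tested.

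Slbp, which encodes the protein that binds the stem-loop of canonical histone transcripts, went the other way and was among the 20 lowest ratios. It was at 88.1, 113, 27.1 and 27.3 RPKM from R2 to R5. The log2 ratio of R5 to R3 was -2.01 as deposited, -1.55 with globins removed and -1.31 with median scaling. As deposited, the difference lay between R3 and R4, while R4 and R5 had nearly the same value.

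Below are the bases before the start of the 3 histone genes highest under the naming rule. They are shown because of that rank, and the part of their motifs in the values was not tested.
Hist1h3i, chr13:21783398-21783547, minus strand: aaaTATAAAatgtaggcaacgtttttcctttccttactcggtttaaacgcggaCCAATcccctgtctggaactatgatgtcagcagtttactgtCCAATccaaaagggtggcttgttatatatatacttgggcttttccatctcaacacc
Hist1h2bb, chr13:23746584-23746733, plus strand: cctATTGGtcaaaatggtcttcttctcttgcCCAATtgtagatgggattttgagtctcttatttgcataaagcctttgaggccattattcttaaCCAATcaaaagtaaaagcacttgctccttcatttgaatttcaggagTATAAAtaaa
Hist1h4h, chr13:23530894-23531043, plus strand: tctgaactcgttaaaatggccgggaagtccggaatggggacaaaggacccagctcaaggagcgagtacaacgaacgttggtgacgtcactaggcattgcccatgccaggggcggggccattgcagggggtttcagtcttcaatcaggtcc
Hist1h3i was at 2.65 RPKM in R3 and 15.0 in R5, Hist1h2bb at 2.34 and 11.6, and Hist1h4h at 3.64 and 13.3. In R5 they rested on an estimated 32, 52 and 62 reads. Hist1h3i held 1 TATAAA and 2 CCAAT, and Hist1h2bb 1 TATAAA and 3 CCAAT, of which 1 is in reverse and written ATTGG. Both had a CCAAT from base 56 to base 52 before the start, while Hist1h4h held 0 of the motifs searched. Of the 54 histone genes 49 had a promoter in the table. CCAAT was present in 42 of these (85.7%), TATAAA in 21 (42.9%), and both in 19 (38.8%), beside 24.5%, 7.57% and 1.92% of all promoters. An E2F site was present in 1.

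Genes of DNA replication had the lowest median of the 33 gene lists on processes and complexes, at -1.32 as deposited. All 52 genes on the list were kept, 46 were at least 2-fold lower and 0 higher, and 51 lay below the median of all genes. With globins removed the median was -0.89 and 18 were lower (3.54% of all genes were), and with median scaling it was -0.66 and 8 were lower (1.18% of all genes were). Pcna, the sliding clamp of the replication fork, was at 600.1, 651, 162 and 195 RPKM from R2 to R5. Of the replicative helicase, Mcm2 was at 221, 185, 49.2 and 52.8 RPKM and Mcm4 at 99.8, 66.4, 16.9 and 18.2, with log2 ratios of -1.79 and -1.81 in R5 against R3. The other helicase subunits were close to each other, with -1.49 for Mcm3, -1.42 for Mcm5, -1.40 for Mcm6 and -1.37 for Mcm7. Of the origin recognition complex, Orc6l was at 33.1 RPKM in R3 and 8.89 in R5. Rrm1 and Rrm2, the subunits of ribonucleotide reductase, which makes the building blocks of DNA, were at 134 and 291 RPKM in R3 and at 37.2 and 102 in R5. Among the polymerases, Pola1 had -1.58, Pole2 -1.63 and Pold1 -1.10, while Pold2 had -0.67, at 29.5 RPKM in R3 and 18.1 in R5. The least lowered member was Ung, a uracil glycosylase of DNA repair, at 9.11 and 6.11 RPKM. The 8 members past 2-fold under every scaling were Pcna, Mcm2, Mcm4, Orc6l, Rrm1, Rfc4, Pole2 and Pola1.

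The course of the replication genes ended in R4. As deposited their median stood at -1.61 in R4 and -1.32 in R5, both against R3, and R4 was the lowest of R3, R4 and R5 in 44 of the 52. With median scaling the medians were -0.62 and -0.66, and the median of R5 against R4 was -0.04. For canonical histones the medians against R3 were -0.11 in R4 and 0.91 in R5 as deposited; with median scaling they were 0.68 and 1.51. In R5, 49 of the 54 histone genes stood above R2 as deposited and 54 with median scaling, whereas 0 and 8 of the 52 replication genes did.

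**Figure D2:**
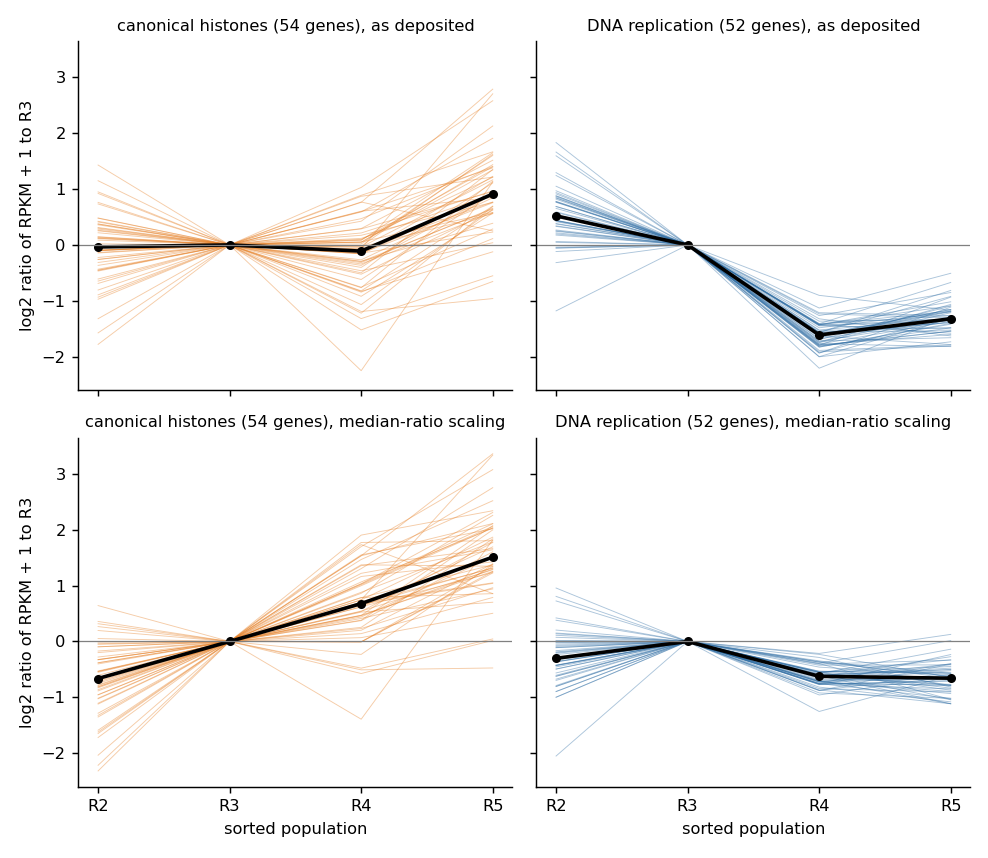
Each thin line is 1 gene across the sorted populations on the x axis, with its log2 ratio of RPKM + 1 to R3 on the y axis, for canonical histones (left) and DNA replication genes (right), as deposited (top) and with median scaling (bottom); black lines are the medians. The histone median is highest in R5 in both scalings, at 0.91 and 1.51, and the replication median is below 0 in R4 and R5 in both.

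The bases before the start of 3 of the lowest replication genes and of Slbp are given for comparison with the histone genes above; all 4 were chosen after their values were seen.
Rrm1, chr7:102441545-102441694, plus strand: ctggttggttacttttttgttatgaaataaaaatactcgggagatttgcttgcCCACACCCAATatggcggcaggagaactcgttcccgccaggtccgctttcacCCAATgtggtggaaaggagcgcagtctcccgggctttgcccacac
Mcm2, chr6:88898781-88898930, minus strand: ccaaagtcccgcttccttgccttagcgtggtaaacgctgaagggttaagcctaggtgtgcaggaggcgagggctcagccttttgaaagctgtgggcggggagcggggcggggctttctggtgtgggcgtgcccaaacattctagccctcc
Orc6l (Orc6 in RefSeq), chr8:85299482-85299631, plus strand: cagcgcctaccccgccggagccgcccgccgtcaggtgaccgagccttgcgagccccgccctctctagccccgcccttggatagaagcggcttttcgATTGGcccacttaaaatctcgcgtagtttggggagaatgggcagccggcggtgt
Slbp, chr5:33652575-33652724, minus strand: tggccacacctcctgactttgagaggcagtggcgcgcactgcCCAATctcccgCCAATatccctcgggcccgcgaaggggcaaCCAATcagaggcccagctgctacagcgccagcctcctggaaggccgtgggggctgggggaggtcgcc
Rrm1 held 2 CCAAT, of which the farther one overlaps CCACACCC, Orc6l held 1 in reverse, written ATTGG, Slbp held 3, and Mcm2 held 0 of the motifs searched. Of the 52 replication genes 42 had a promoter in the table. TATAAA was present in 0 of these, CCAAT in 21 (50%) and an E2F site in 5 (11.9%). Over all promoters CCAAT was present in 24.5% and an E2F site in 0.868%. The part of these motifs in the values of either group was not tested.

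Genes of mitosis were lower by less, and less evenly. All 57 were kept, with a median of -0.98 as deposited, 28 at least 2-fold lower and 0 higher, beside 15.7% and 0.796% of all genes; with median scaling the median was -0.31, with 2 lower and 1 higher, beside 1.18% and 3.48%. The condensin subunit Smc4 was the lowest, at 29.2, 13.9 and 6.97 RPKM from R3 to R5. Mki67, the proliferation antigen, was at 69.8, 196, 136 and 62.0 RPKM from R2 to R5, with a log2 ratio of -1.64. Ccna2, a cyclin of S phase and mitosis, was at 148 RPKM in R3 and 59.2 in R5, while Ccnb2, a mitotic cyclin, was at 113 and 68.4. Some genes of the anaphase-promoting complex pathway, which ends mitosis, were not lower. Its conjugating enzymes Ube2c and Ube2s were at 411 and 512 RPKM in R3 and at 446 and 598 in R5, and its activator Fzr1 at 188, 302 and 265 RPKM from R3 to R5. Fzr1 was the member past 2-fold higher with median scaling, at 1.21, while Cdc20, the other activator, was at 86.0 RPKM in R3 and 50.7 in R5.

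Regulators of cell cycle exit lay on both sides of the all-gene median. Over 31 genes the median was -0.28 as deposited, with 6 at least 2-fold lower and 0 higher, and 0.32 with median scaling, with 3 higher and 2 lower. As deposited 12 of the 31 lay below the all-gene median, and 15.7% of all genes were at least 2-fold lower. The retinoblastoma family was low, with Rb1 at 14.7 RPKM in R3 and 3.79 in R5, Rbl1 at 9.83 and 2.47, and Rbl2 at 3.55 and 1.08. Ccnd3, the main D cyclin of these libraries, was at 135, 349, 115 and 128 RPKM from R2 to R5. Of the inhibitors of cyclin-dependent kinases, Cdkn2c was at 18.8 RPKM in R3 and 7.42 in R5, Cdkn1a at 1.74 and 1.18, and Cdkn1c at 6.50 and 5.90. Cdkn2d was at 9.07, 67.2, 72.9 and 87.8 RPKM, Cdkn1b at 13.5 in R3 and 16.7 in R5, and the stress gene Gadd45a at 29.6, 99.1, 187 and 145 from R2 to R5. The 3 higher with median scaling were Ccng2, Gadd45a and Cdkn2d, and the 2 lower were Rb1 and Rbl1.

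The 29 late red cell genes of little-known function are given first as deposited. R4 was above both R3 and R5 in 13, between them in 11 and below both in 5. Their median in R5 against R3 was -0.44 as deposited and 0.18 with median scaling. As deposited 7 were at least 2-fold lower and 1 higher, beside 15.7% and 0.796% of all genes. With median scaling 0 were lower and 6 higher, beside 1.18% and 3.48%. Several late genes with R4 above R5 and R5 above R3, from this and other lists, are given with their values. Tmcc2, which encodes a transmembrane coiled-coil protein, was at 52.8, 503, 1776 and 991 RPKM from R2 to R5. Bcl2l1, whose product Bcl-xL protects from cell death, was at 18.2, 119, 338 and 263 RPKM, 2.21-fold higher in R5 than in R3. Bpgm, the enzyme that makes bisphosphoglycerate and so lowers the oxygen affinity of hemoglobin, was at 15.0, 62.4, 194 and 134 RPKM. Phospho1, a phosphatase of phospholipid head groups, was at 10.6, 86.1, 202 and 172. Xpo7, a nuclear exportin, had the sharpest peak, at 5.17, 30.1, 146 and 53.4 RPKM. Of these, Bcl2l1 and Bpgm were past 2-fold as deposited, and all 5 were with median scaling, with log2 ratios between 1.51 for Xpo7 and 1.85 for Bcl2l1. Over all genes, R4 lay above both R3 and R5 in 4 of the 66 genes higher as deposited, and in 79 of the 289 higher with median scaling. Of the 1302 genes lower as deposited, R4 lay below both in 586 (45.0%), but in 2 of the 98 lower with median scaling. As deposited 925 of the 1302 were already past 2-fold in R4 against R3, and 23 were past 2-fold in R5 against R4.

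**Figure D3:**
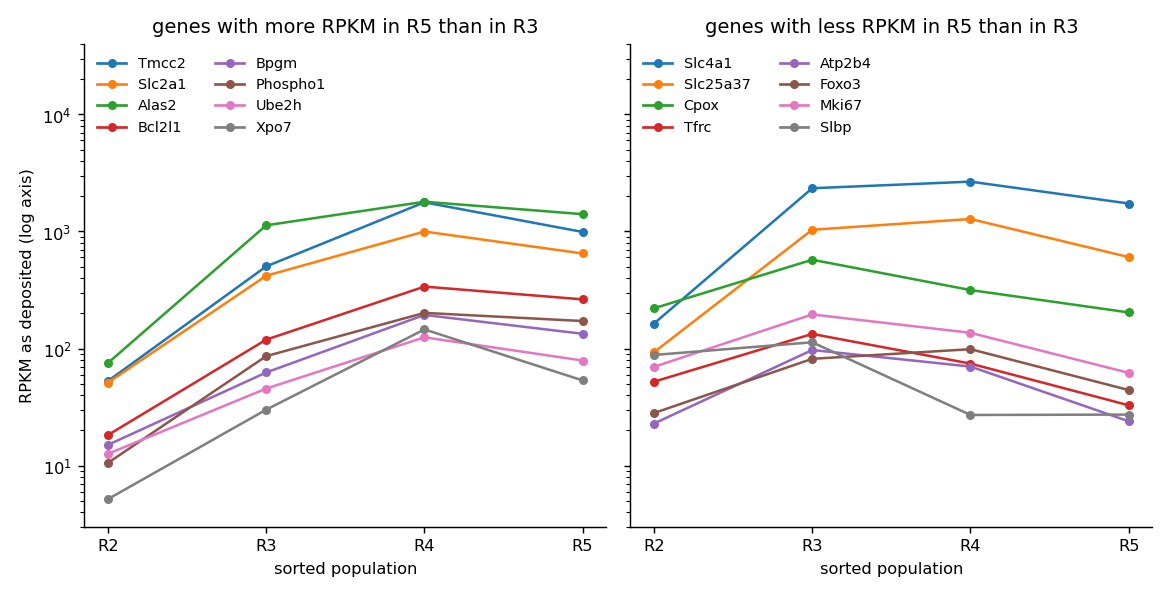
Values of 16 genes in RPKM as deposited (log axis) in the 4 sorted populations, 1 library each; points are libraries and lines join the values of a gene. On the left, the 8 genes with more RPKM in R5 than in R3 all have their highest value in R4; on the right are 8 genes with less RPKM in R5 than in R3, among them Tfrc at 133 and 32.8.

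Heme synthesis genes differed among themselves, in no order along the pathway. All 14 were kept, with a median of -0.52 as deposited and 0.16 with median scaling. As deposited 4 were at least 2-fold lower and 0 higher, beside 15.7% and 0.796% of all genes. With median scaling 1 was higher and 0 lower, beside 3.48% and 1.18%. Alas2, the rate-limiting enzyme of red cell heme synthesis, was at 75.3, 1129, 1797 and 1406 RPKM from R2 to R5, and was the one past 2-fold with median scaling, at 1.03. Alad was at 667 RPKM in R3 and 503 in R5, Urod at 822 and 678, Ppox at 272 and 221, and Fech, which inserts the iron, at 451 and 375. The 4 that were at least 2-fold lower as deposited were Cpox, the coproporphyrinogen oxidase, at 574 and 203 RPKM, Tmem14c, a porphyrin transporter of the inner mitochondrial membrane, at 530 and 204, Uros, the uroporphyrinogen synthase, at 96.3 and 38.1, and Abcb10, a mitochondrial transporter, at 205 and 86.8. With median scaling these 4 had log2 ratios between -0.52 and -0.77. Alas1, the form of the first enzyme found in all tissues, was at 53.0, 4.14, 2.17 and 4.27 RPKM. Clpx, a mitochondrial unfoldase, was at 5.27 RPKM in R3 and 3.02 in R5, Slc25a38, a glycine carrier, at 127 and 67.3, and 1110008F13Rik at 74.4 and 45.6.

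Iron genes had a median of -0.75 over 28 genes, with 8 past 2-fold as deposited, all of them lower (15.7% of all genes were). With median scaling the median was -0.05, with 1 higher and 1 lower. Uptake was lowest, with Tfrc at -1.99 and Steap3, the endosomal iron reductase, at 55.4 RPKM in R3 and 19.3 in R5. Slc11a2, the endosomal iron transporter, was at 25.1 and 11.4, and Slc25a37, the mitochondrial iron importer, at 93.0, 1035, 1279 and 605 RPKM from R2 to R5. Picalm, a clathrin adaptor known for the uptake of transferrin receptor, was on no list and was singled out after its value was seen, at 103 RPKM in R3 and 30.4 in R5. Storage stood higher. Ftl1, the ferritin light chain, was at 1467, 2370.5, 2323 and 3905 RPKM, with a log2 ratio of 0.72 as deposited and 1.44 with median scaling, and Fth1, the heavy chain, at 3621 in R3 and 3073 in R5. Ftl2, a near-copy of Ftl1, was among the 20 highest at 9.87 and 26.7 RPKM, but rested on 21 and 46 reads, and its reads may belong to Ftl1.

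Genes of the membrane skeleton lay near the all-gene median, and surface transporters below it. The 32 genes of the membrane skeleton had a median of -0.61 as deposited and 0.08 with median scaling, with 6 members past 2-fold as deposited, all lower in R5 (15.7% of all genes were), and 0 in either direction with median scaling. Slc4a1, the anion exchanger, was at 164, 2342, 2667 and 1734 RPKM from R2 to R5. Epb4.1, which links spectrin to actin, was the highest ratio, at 181, 355 and 217 RPKM from R3 to R5, and Aqp1, a water channel, the lowest, at 76.1, 25.5 and 24.9. The 25 surface transporters had a median of -0.84, and 19 of them lay below the all-gene median as deposited. Of these transporters 11 were lower and 0 higher as deposited, beside 15.7% and 0.796% of all genes, and 3 were lower and 1 higher with median scaling, beside 1.18% and 3.48%. Slc2a1, the glucose transporter, was at 51.1, 419, 999 and 649 RPKM from R2 to R5. The 3 lower were Atp2b4, a calcium pump, at 97.2 RPKM in R3 and 23.9 in R5, Slc39a8, a metal ion importer, at 34.4 and 9.40, and Slc30a10, a manganese exporter, at 28.2 and 7.84. Abcg4, a sterol transporter on no list, was among the 20 lowest at 37.5 and 9.16. Of 9 carbonic anhydrase genes 3 were kept. Car2 was at 1387 RPKM in R3 and 852 in R5, Car1 at 10.4 and 4.70, and Car3 at 2.20 and 0.76.

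Erythroid transcription factors as a group followed the median of all genes. Over 42 genes the median was -0.70 as deposited and 0.01 with median scaling. As deposited 8 were at least 2-fold lower and 0 higher, beside 15.7% and 0.796% of all genes. With median scaling 2 were lower and 0 higher, beside 1.18% and 3.48%. Gata1, the main regulator of the lineage, was at 120, 161, 90.7 and 90.5 RPKM from R2 to R5, Klf1, the activator of adult beta globin, at 254, 418, 257 and 255, and Tal1 at 69.3, 156, 103 and 75.2. Nfe2 was among the 5 members with a ratio above 0 as deposited, at 60.4, 204, 258 and 216 RPKM from R2 to R5. Zbtb7a and Rb1 were the 2 past 2-fold lower under every scaling, with Zbtb7a at 62.1 RPKM in R3 and 17.5 in R5. Klf13 was just short of 2-fold with median scaling, at 17.6 and 5.01 RPKM. Foxo3, a regulator of autophagy and red cell maturation, was at 28.1, 81.7, 98.7 and 44.2 from R2 to R5. Bcl11a and Myb, known for their part in globin switching, were at 10.7 and 5.52 RPKM in R3 and at 5.42 and 4.87 in R5.

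Genes of nuclear transport and the nuclear envelope were low as a group, and Xpo7 was the exception. Over 51 genes the median was -0.97 as deposited and -0.34 with median scaling, with 23 members lower and 0 higher by at least 2-fold in the first, beside 15.7% and 0.796% of all genes, and 1 lower and 1 higher in the second, beside 1.18% and 3.48%. The general exportin Xpo1 was at 21.1, 11.8, 3.47 and 3.46 RPKM from R2 to R5, and the pore protein Ranbp2, the one past 2-fold lower with median scaling, at 9.65 in R3 and 2.57 in R5. Lbr, the lamin B receptor, was at 111 RPKM in R3 and 38.3 in R5, and Lmna, lamin A, at 179 and 137. Ubiquitin genes of late erythroblasts are listed apart. Over 37 genes the median was -0.48 as deposited and 0.20 with median scaling, with 0 higher and 2 lower by at least 2-fold in the first and 3 higher and 0 lower in the second (3.48% and 1.18% of all genes were). The 3 were Ube2h, at 45.5, 125 and 79.0 RPKM from R3 to R5, Ube2o, a conjugating enzyme known for clearing ribosomal proteins from reticulocytes, at 124, 297 and 185, and the ubiquitin gene Ubb, at 548, 785 and 675. Trim58, a ligase known for its part in enucleation, peaked in R4 and came back, at 23.5, 64.6 and 21.9. Of 38 genes of autophagy and mitophagy 0 were higher and 1 lower as deposited, 1 higher and 1 lower with globins removed, and 3 higher (3.48% of all genes were) and 0 lower with median scaling. Of the last 3, Pink1, a kinase that marks damaged mitochondria, was at 28.9, 51.3 and 41.0 RPKM from R3 to R5, Calcoco1, an autophagy receptor, at 8.86, 22.3 and 14.7, and Gabarapl1, which is coupled to the membrane of autophagosomes, at 13.2, 15.4 and 18.4.

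Genes of glycolysis and of protective enzymes had medians above the median of all genes. Over 21 glycolysis genes the median was 0.03 as deposited and 0.71 with median scaling. As deposited 2 were at least 2-fold higher and 3 lower, beside 0.796% and 15.7% of all genes. The 2 higher were Gapdh, with its 2 reads, and Bpgm. Pklr, the red cell pyruvate kinase, went against the group, at 274, 258, 79.2 and 81.8 RPKM from R2 to R5. Ldha and Eno1 were at 117 and 111 RPKM in R3 and at 121 and 110.2 in R5, but at 801 and 444 in R2. The 34 genes against oxidative damage and of the pentose phosphate pathway had medians of -0.28 and 0.41. Gpx1, the glutathione peroxidase, was at 1720.0, 5061, 7370.4 and 6822 RPKM from R2 to R5. Of 33 genes of survival and apoptosis 2 were higher and 4 lower as deposited, beside 0.796% and 15.7% of all genes, and 4 were higher and 1 lower with median scaling, beside 3.48% and 1.18%. Higher as deposited were Bcl2l1 and Hspa1a, a heat shock protein, at 1.15 and 3.78 RPKM, and Casp2, a caspase, was the lowest at 14.8 and 3.71. The 2 genes for regulatory subunits of the phosphatase that acts on translation factor eIF2 parted. Ppp1r15b was among the 20 lowest, at 37.7, 32.0, 11.2 and 8.45 RPKM from R2 to R5, while Myd116, the stress-induced one, was at 42.4, 192, 290.1 and 252.

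Genes that make and process RNA and protein had medians below 0 as deposited. With median scaling 37 of 49 splicing genes lay below the all-gene median and 36 of 44 ribosome biogenesis genes above it. Splicing genes had a median of -0.88 over 49 genes, with 17 lower, and -0.22 with median scaling, with 0 past 2-fold. RNA polymerase II and elongation genes had -0.68 over 51 genes, and chromatin modifiers -0.75 over 51, with 11 and 14 lower as deposited (15.7% of all genes were). With median scaling the first list held 0 lower and 1 higher and the second 2 lower and 1 higher. Polr2a, the largest polymerase subunit, was at 92.7, 63.0, 26.7 and 24.0 RPKM from R2 to R5. Suz12, a Polycomb subunit, was at 17.1 RPKM in R3 and 4.76 in R5. Ribosome biogenesis genes already had low values in R3, with a summed RPKM of 3859, 688, 277 and 505 from R2 to R5. As deposited R4 was below both R3 and R5 in all 44 of them. Their median in R4 against R3 was -1.09 as deposited and -0.18 with median scaling. Their median in R5 against R3 was -0.36 as deposited and 0.27 with median scaling. Cytosolic ribosomal proteins had -0.65 over 73 genes, of which 18 rested on under 30 reads, mitochondrial ribosomal proteins -0.49 over 75, and oxidative phosphorylation -0.58 over 74. Hspa8, a heat shock protein of all cells, was at 2245, 495, 174 and 271 RPKM.

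**Figure D4:**
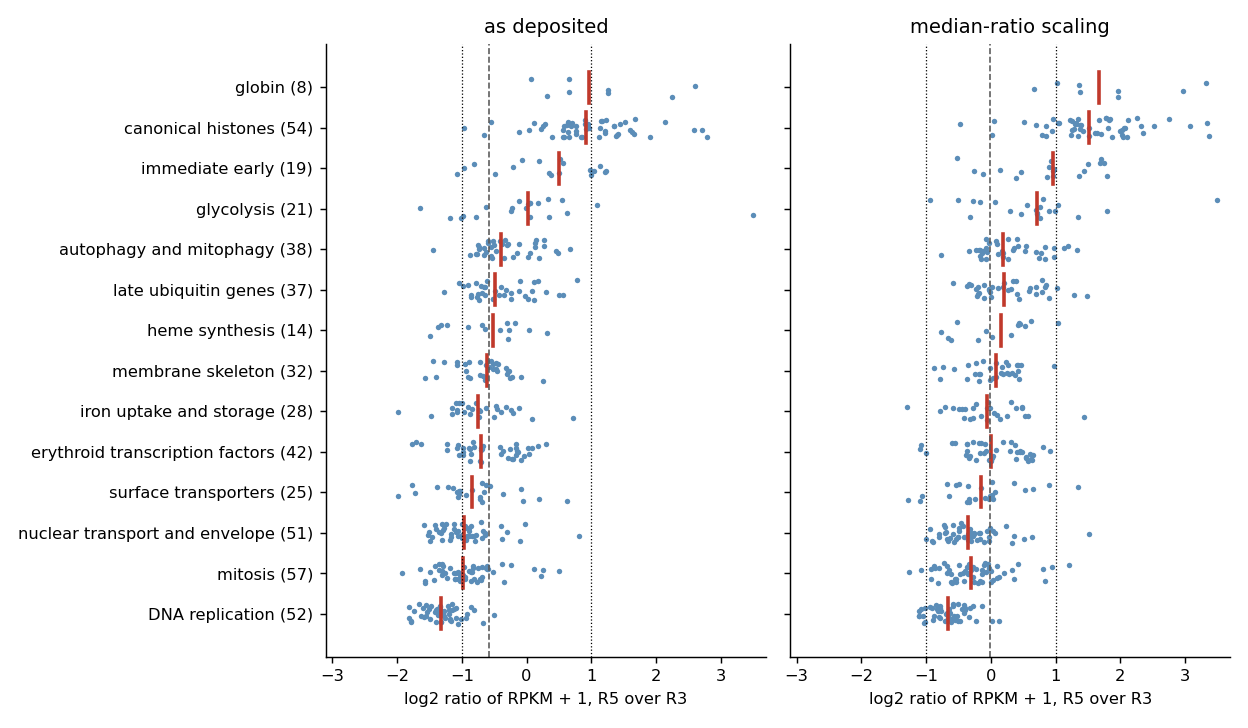
Each point is the log2 ratio of RPKM + 1, R5 over R3, of 1 member of the list named at the left (number of genes kept in brackets), as deposited on the left and with median scaling on the right; red bars are list medians, the dashed line is the median of all genes, dotted lines mark 2-fold. Histone genes lie farthest to the right beside the globins and replication genes farthest to the left; Gapdh, at 6.61 and 7.09 from 2 reads, is drawn at the right edge.

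Immediate early genes, which are transcribed within minutes of a stimulus and whose transcripts are short-lived, included many at low levels, with 14 of 27 under 1 RPKM in R3 and 8 in R5. Of the 27 genes 19 were kept, and 6 of these passed the limit of 1 RPKM only through R5, so they had to be higher there. Of the 13 that were at 1 RPKM or more in both libraries, 4 were at least 2-fold higher as deposited and 1 was lower; over all genes 43 of 7225 such genes were higher. With median scaling the 13 held 4 higher and 0 lower, beside 235 and 75 of the 7225. Jund was the most abundant, at 63.2, 35.4, 42.0 and 74.1 RPKM from R2 to R5, and Ier3 was at 7.48, 13.2, 18.2 and 27.4. Both had their highest value in R5. Jun was at 44.6, 2.10, 1.76 and 6.22 RPKM and Fos at 34.7, 1.80, 1.61 and 5.17, so R5 lay far below R2. Among the genes kept only through R5 were Fosl1, listed at 0 in R3 and at 1.32 in R5, and Dusp5, at 0.23 and 1.48. Btg2 and Klf10 were on the other side, with Btg2 at 52.7 and 26.5 RPKM and Klf10 at 5.56 and 2.13. Granulocyte markers, given next, were also far lower in these 3 libraries than in R2. The part of other cells in the immediate early values was not tested.

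Markers of other cell types were present at low levels in both libraries. Summed over 25 granulocyte markers the RPKM was 8040.2, 579, 316 and 608 from R2 to R5, so that R3 held 7.20% and R5 7.57% of the R2 value. Mpo, the granule peroxidase, was at 1966, 95.2, 59.1 and 146 RPKM. Of the 20 granulocyte genes kept 0 were past 2-fold as deposited, and R4 was below both R3 and R5 in all 20. Their median log2 ratio in R5 against R3 was -0.22 as deposited, and 19 of the 20 lay above the all-gene median. With median scaling the median was 0.44, with 5 higher and 0 lower, beside 3.48% and 1.18% of all genes. The sums for hepatocyte markers were 911 in R3 and 706 in R5, with Alb, the albumin gene, at 161 and 86.0, those for macrophage markers 153 and 130, for endothelial and stromal markers 28.7 and 28.2, and for lymphoid markers 8.16 and 8.87. Of the 25 lymphoid markers 11 were listed at 0 in R3 and 6 in R5. Megakaryocyte and platelet markers had the largest relative difference of these sums toward R5, at 110, 73.1, 41.9 and 104 from R2 to R5. Of its 16 genes kept, 12 had a ratio above 0 as deposited and 4 below it. Gp1bb passed the limit of 1 RPKM only through R5. Of the 15 others 2 were higher by at least 2-fold as deposited and 7 with median scaling, and 0 were lower, beside 43 and 235 higher of the 7225 genes at 1 RPKM or more in both libraries. Pf4, a platelet chemokine among the 20 highest genes, was at 10.8, 10.7, 7.04 and 31.6 RPKM from R2 to R5. Most of the difference between R3 and R5 in the summed RPKM of this list was that of Pf4 alone. Gp1bb and Gp5, subunits of the platelet receptor for von Willebrand factor, were at 0.86 and 1.36 RPKM in R3 and at 3.49 and 3.88 in R5, and Itga2b, the platelet integrin, at 6.08 and 12.5. Gp9, another subunit of the same receptor, had the lowest ratio of the 4 below 0, at 19.7 RPKM in R3 and 11.5 in R5. The part of platelets or megakaryocytes in the R5 library was not tested.

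**Figure D5:**
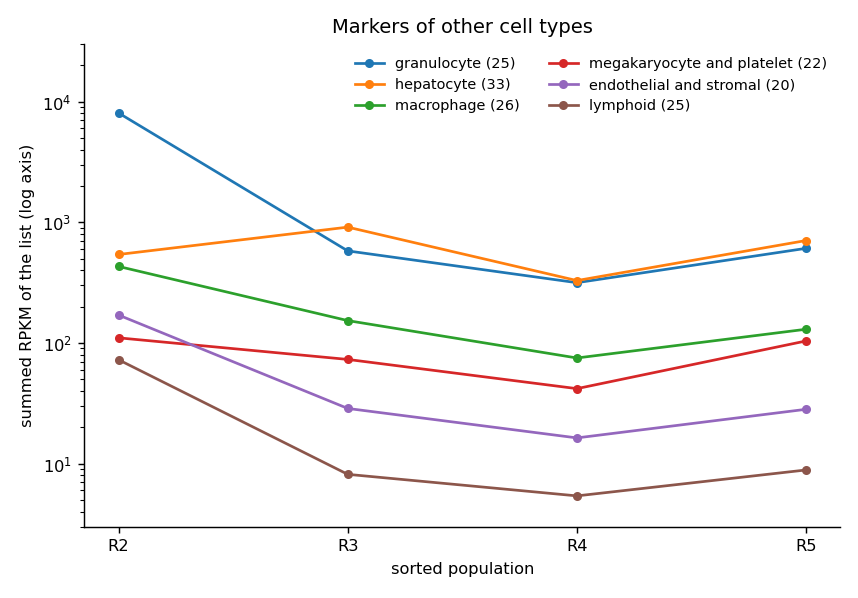
Summed RPKM as deposited (log axis) of 6 lists of markers of other cell types in the 4 sorted populations, with the number of genes measured in brackets; points are libraries. Granulocyte markers are at 8040.2 in R2 and at 579 and 608 in R3 and R5, and the megakaryocyte and platelet list is at 73.1 in R3 and 104 in R5.

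Under the naming rule Pf4 was the highest gene outside the globins and histones, and the bases before its start are shown for that reason.
Pf4, chr5:90772285-90772434, plus strand: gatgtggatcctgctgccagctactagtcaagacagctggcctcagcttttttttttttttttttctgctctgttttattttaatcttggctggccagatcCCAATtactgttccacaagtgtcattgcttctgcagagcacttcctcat
The window held 1 CCAAT, from base 49 to base 45 before the start, and 0 of the other motifs searched.

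Genes higher in R5 were shorter and more often without introns than the rest. Of 7993 genes with at least 30 estimated reads and an annotated length, 1.91% had a single exon, against 43.2% of the 44 higher as deposited (19 genes, most of them histones) and 0.635% of the 1260 lower. The median transcript length was 2553 bases over all, 1191 in the higher and 3375.5 in the lower genes. Across genes, which share both libraries and are not independent replicates, Spearman's rho of transcript length with the log2 ratio was -0.27, and it was -0.27 (7962 genes) without the canonical histones. Over 4 equal groups of genes from the shortest to the longest, the median log2 ratio as deposited was -0.45, -0.52, -0.62 and -0.74. The ratio also went with the level, with a rho of -0.24. The part of transcript integrity in these values was not tested.

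Of the 20 lowest genes, 12 were on no list, Abcg4 among them. Ncapg2, a condensin subunit, was at 16.7, 4.54 and 3.09 RPKM from R3 to R5. Fignl1, an ATPase of DNA repair, was at 27.4, 9.29 and 5.68, Kntc1, a kinetochore protein, at 15.7, 5.09 and 2.99, Dek, a chromatin protein, at 87.2, 29.1 and 21.2, and Atad2, a chromatin ATPase, at 17.1, 4.31 and 3.61. Dck, which salvages deoxycytidine, was at 41.2, 15.9 and 10.1. As deposited, R4 lay between R3 and R5 in these 6 genes, nearer to R5. The place of R4 between them depends on the scaling. Hnrnph3, an RNA-binding protein of splicing, was at 24.4, 6.14 and 5.36, Tac2, a tachykinin precursor, at 15.6, 2.68 and 2.88, Tcf19 at 38.5, 8.94 and 9.82, and Tbc1d24 at 11.6, 2.97 and 2.41. Rpl23, the lowest of all at 10.1, 4.42 and 1.46, has many near-copies in the genome and rested on an estimated 32 reads in R5. On the other side, 1110020C03Rik was at 0.72, 4.82, 10.9 and 14.1 RPKM from R2 to R5. Sertad1, a co-regulator of transcription, was at 9.32, 10.4, 20.9 and 23.8. As deposited both genes were higher in each population than in the population before it. Of the 66 genes higher under all scalings in which they had a value, 45 were not under 30 reads, and 14 of these were canonical histones, 4 globins and 18 on no list. Of the 98 lower, 85 were not under 30 reads, and 8 of these were replication genes, 2 mitosis genes and 59 on no list.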

How the data were processed

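RNA-seq of 1 library from each of 4 sorted populations was deposited by the authors as RPKM values for 19564 gene symbols. Per the submitters' processing notes the build was mm9. The aligner, counter and gene annotation were not given in the sources used here. RPKM divides by the library's reads, so a rise of globin transcripts lowers the values of all other genes. From these values log2 ratios of R5 to R3 were computed with a pseudocount of 1 RPKM, for genes at 1 RPKM or more in R3 or R5, with 2-fold as the limit, as deposited, with globin genes removed, and with median scaling. Reads per gene were worked out from the step size of the values where this was possible and otherwise estimated from annotated length, which overstates them where fewer bases could be counted. Library sizes are upper limits, since they take the fewest countable bases of a gene to be 1. Of 1516 list entries 1452 matched by symbol, 15 by another symbol, 11 by a synonym and 38 not at all. The members and lists were chosen with earlier results of these data known.

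Genes were named by a rule: the 20 highest and 20 lowest ratios among genes at 10 RPKM or more with at least 30 reads in the higher library, from each list the 4 most abundant members and the 2 highest and 2 lowest ratios at 5 RPKM or more, all globin, heme and carbonic anhydrase genes, and the sort genes. Genes named outside it, chosen after their values were seen, were Hist2h2be, Hist1h2ag, Mcm3, Mcm5, Mcm6, Orc6l, Pola1, Pole2, Pold1, Rfc4, Ccna2, Ccnb2, Cdc20, Rbl2, Cdkn1a, Cdkn1b, Cdkn1c, Cdkn2c, Slc11a2, Picalm, Slc30a10, Gata1, Tal1, Klf13, Bcl11a, Myb, Trim58, Gabarapl1, Hspa1a, Fosl1, Dusp5, Gp1bb and Gp5. Of the genes the rule takes in, 2 are not reported here. Promoters came from RefSeq (GRCm38.p6). The read fit was tested on simulated data. Python 3.11.15, numpy 2.4.6, pandas 2.3.3, scipy 1.17.1 and matplotlib 3.10.9 were used. Other scalings, pseudocounts, filters and the omission of genes with few reads were tried as alternatives.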

Additional observations from a re-analysis of the deposited data

How the results depend on the processing

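No paired analysis was possible because each population had 1 library, and for the same reason no replicate could be left out. The number of genes at least 2-fold higher in R5, 66 as deposited, was 289 with median scaling over 4 libraries, 249 with median scaling over R3 and R5 alone, 180 with globins removed, 130 with a pseudocount of 0.1 RPKM, 25 with one of 5 RPKM and 43 with a filter of 5 RPKM. The number lower, 1302, was 98, 107, 293, 2328 and 305 under the first 5 of these. Canonical histones higher, 23, were 44, 42 and 42 under the 3 scalings in that order, 12 with a pseudocount of 5 RPKM and 14 without genes under 30 reads. Replication genes lower, 46, were 8, 8 and 18 under the 3 scalings. With the identical alpha globins counted once, the globin share was 46.7% in R3 and 72.1% in R5. Of the genes higher in R5, the share lowest in R4, 22.7% as deposited, was 10.04% with median scaling. Of the genes lower in R5, the share lowest in R4, 45.0%, was 2.04% and 6.83% under median scaling and the removal of globins, and the share with R4 in between, 54.5%, was 82.7% and 88.1%. The 40 highest and lowest named genes kept their sign under every setting in which they had a value (36 with globins removed). The kept signs are no check, because these genes were picked as the extremes and a pseudocount or filter cannot change a sign. With a pseudocount of 5 RPKM 34 of them stayed past 2-fold. Of 40 list medians 21 kept their sign with median scaling over 4 libraries.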

Other observations

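Values of 3 noncoding RNAs, chosen after their values were seen, were lower in R5 than in R3 as deposited. Malat1, a nuclear RNA that is abundant in most cells, was at 48.8 RPKM in R3, 52.4 in R4 and 29.1 in R5, with a log2 ratio of -0.73 as deposited and -0.02 with median scaling. Snhg1 and Gas5, host genes of small nucleolar RNAs, were at 65.8 and 81.7 RPKM in R2. In R3 they were at 19.7 and 14.4, and in R5 at 7.04 and 9.19. Snhg1 rested on an estimated 20 reads in R5.

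As deposited 8 of 45 proteasome genes were past 2-fold downward and 0 upward, beside 15.7% and 0.796% of all genes, and with median scaling 2 were higher and 1 lower. The 2 higher, Psmb8 and Psmb10, encode subunits of the immunoproteasome, and had log2 ratios of 1.09 and 1.30 with median scaling. The lower one was Psma1, a subunit of the core particle, at -1.08. Of 43 translation factors 11 were lower as deposited and 0 were past 2-fold in either direction with median scaling.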
